A study of Homo sapiens
Mus musculus with 24 samples.

Results

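The comparison described here is the effect of moringa concentrate (MC) in the diet on tumor transcripts, read over mice with and without chemotherapy. It covers 20 of the 24 libraries of the series, chosen by the prefix of their titles. Each library came from 1 tumor of 1 mouse. All 20 mice were females of a Rag1 null line (B6/Rag1KO), which lacks mature B and T cells, and all ate a high-fat diet. Each carried a xenograft of MDA-MB-231, an established human triple negative breast cancer cell line, placed under the skin at the base of the neck in Matrigel with collagen when the mice were 14 weeks old per the labels. The 4 CTRL mice had weekly intraperitoneal saline and the 5 Chemo mice had weekly intraperitoneal doxorubicin with cyclophosphamide. The 5 MC mice ate the same diet with MC added, and the 6 MC + Chemo mice had both MC and the 2 drugs. The sources used here do not state whether the MC mice were injected. The MC diet was thus given to 11 mice and withheld from 9. The stratum without chemotherapy held 9 libraries, the stratum with chemotherapy held 11, and the strata shared none. The other 4 libraries came from lean mice and entered 1 alternative fit only. MC + Chemo 5 was placed by its title, because its intervention label reads MC.

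MC is prepared from moringa seed so as to be rich in the isothiocyanate MIC-1. Isothiocyanates are electrophiles that react with thiols of the sensor KEAP1 and thereby release the transcription factor NRF2, which drives genes of glutathione synthesis, quinone reduction and NADPH supply. They can also trigger the heat shock response and dampen NF-kB signaling. In a xenograft, reads assigned to the human genome are taken to come mainly from the implanted tumor cells, and reads assigned to the murine genome from the host: vessels, fibroblasts, innate immune cells and any neighboring muscle or fat taken with the tumor. Reads of conserved genes can match both genomes, and human-assigned counts of muscle genes are set beside the murine ones below. The question was which genes differed with the MC diet in the same direction whether or not the mice received chemotherapy.

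A library held 3664060 to 9892470 murine counts, with 5930490 as the median. It held 7796230 to 17621300 human counts, with 10239800 as the median. Neither total differed with the MC diet (two-sided exact permutation within strata, p = 0.567 for murine and p = 0.945 for human totals). Human reads made up 47.8 to 74.0% of all counts, with a median of 65.8%. The mean of the 2 within-stratum differences in this share (MC diet minus none) was -1.67 percentage points (exact permutation p = 0.581). It was 0.0411 points without MC 41, the library at 47.8%. MC 41 and MC 42 were the only high-fat libraries whose RNA had an extra column cleanup. Of 11 markers of B and T cells, 3 were in the murine table and 2 were abundant enough to test.

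The libraries differed in host tissue before any test. A score was taken as the mean of log2(CPM + 1) over the murine genes of a marker list, where CPM is the count scaled to the library total. The skeletal muscle score (28 genes) ran from 1.5 to 1.66 in CTRL, from 1.47 to 3.97 in Chemo, from 1.57 to 7.93 in MC and from 1.46 to 8.14 in MC + Chemo. The brown adipocyte score ran from 1.29 to 2.52 in CTRL, 1.5 to 2.03 in Chemo, 1.45 to 8.67 in MC and 1.51 to 5.28 in MC + Chemo. A score above 3 on either list was found in 8 libraries: Chemo 30, MC 6, MC 41, MC 48, MC + Chemo 5, MC + Chemo 43, MC + Chemo 47 and MC + Chemo 52. Thus 7 of the 8 were from the MC diet, and each MC group also held libraries at the CTRL level. In bulk tissue, fewer cells of a type and less RNA per cell cannot be told apart. The main counts are also given without these 8 libraries, which leaves 4 CTRL, 2 MC, 4 Chemo and 2 MC + Chemo libraries.

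**Figure D1:**
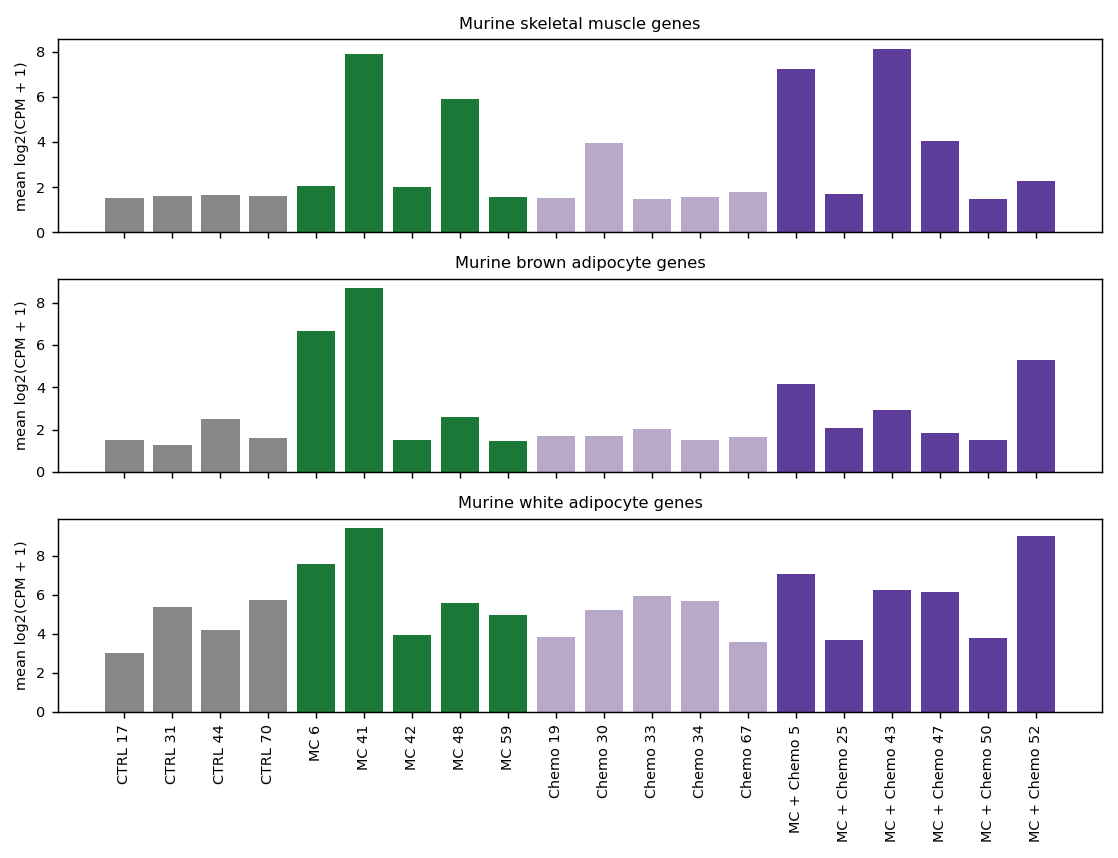
Murine skeletal muscle, brown adipocyte and white adipocyte scores (mean log2(CPM + 1)) in each of the 20 libraries, with 1 bar per library colored by group. Muscle scores above 3 were reached by Chemo 30 at 3.97, by MC 41 and MC 48, and by MC + Chemo 5, 43 and 47, while the muscle scores of CTRL end at 1.66.

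The MC diet was tested gene by gene with the edgeR quasi-likelihood F test, with chemotherapy as a covariate and Benjamini-Hochberg adjustment over all genes tested. In the murine genome 0 of 15011 genes passed an adjusted p of 0.05 and the lowest adjusted p was 0.0697. At an unadjusted p below 0.05 there were 2322 genes (15.5%), of which 1339 were higher (8.92%) and 983 lower (6.55%) with MC. DESeq2 called 641 genes at an adjusted p of 0.05 (4.27%), 388 higher (2.58%) and 253 lower (1.69%). The limma voom test with sample quality weights, which gives less weight to libraries that depart from their group, called 380, of which 45 were higher and 335 lower. In the human genome edgeR called 0 of 16434 genes (lowest adjusted p = 0.158), with 1769 genes at an unadjusted p below 0.05 (10.8%), 613 higher (3.73%) and 1156 lower (7.03%). DESeq2 called 100 human genes (0.608%), 31 higher (0.189%) and 69 lower (0.42%), and limma voom with quality weights called 475, 82 higher and 393 lower. No gene is therefore called changed by edgeR, and the values below are read beside the 3 tests.

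A gene was counted as shifted in both strata when MC against CTRL and MC + Chemo against Chemo each gave an unadjusted p below 0.05 with the same sign. There were 270 such murine genes (1.8% of those tested), 186 higher (1.24%) and 84 lower (0.56%), against 26 (0.173%) with opposite signs. There were 151 such human genes (0.919%), 50 higher (0.304%) and 101 lower (0.615%), against 28 (0.17%) with opposite signs. Of the 186 murine genes that were higher, DESeq2 called 170 and voom called 13 for the main effect. Of the 84 that were lower, DESeq2 called 82 and voom called 74. Of the human genes, DESeq2 called 29 and voom 8 of the 50 that were higher, and DESeq2 called 49 and voom 66 of the 101 that were lower. The main effect pools the 2 contrasts by which these genes were chosen, on the same libraries, so these calls are not independent support. Counted by the same rule in the voom fit, 293 murine genes shifted in both strata, 62 higher and 231 lower, of which 15 were among the 186 and 65 among the 84. The voom count for human genes was 317, 87 higher and 230 lower, of which 12 were among the 50 and 65 among the 101.

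Without the 8 libraries of high muscle or brown fat score, 72 murine genes were shifted in both strata, 1 higher and 71 lower. They included 0 of the 186 genes that were higher over all 20 libraries and 22 of the 84 that were lower. The human count was then 35, with 6 higher and 29 lower, and held 2 of the 50 and 13 of the 101. With the muscle and brown adipocyte scores as covariates in place of leaving libraries out, 3 of the 186 and 36 of the 84 murine genes and 10 of the 50 and 34 of the 101 human genes were again in the set. The 2 scores are built from marker genes, of which 24 of skeletal muscle and 5 of brown adipocytes are among the 186. For these markers the loss in both fits was fixed by the choice. Fewer libraries also mean wider errors, and the part each plays was not tested.

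Over all genes tested, 55% of murine genes (8250) had the same sign in both strata, 29% higher and 26% lower. The same was true of 48.6% of human genes (7992), 23.4% higher and 25.2% lower. The main effect was above 0 for 52.7% of murine and 48.7% of human genes. Of the 1310 murine genes that were higher with MC at an unadjusted p below 0.05 without chemotherapy, 82.6% were also higher with it. Of the 457 that were lower, 54.7% were also lower. The same shares of human genes were 59.6% of 788 and 46.1% of 974. Across murine genes the stratum log2 fold changes had a Pearson r of 0.601 and a Spearman rho of 0.191 (15011 genes). Across human genes r was 0.215 and rho -0.0312 (16434 genes). Genes are not independent replicates, and these values describe the libraries only.

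**Figure D2:**
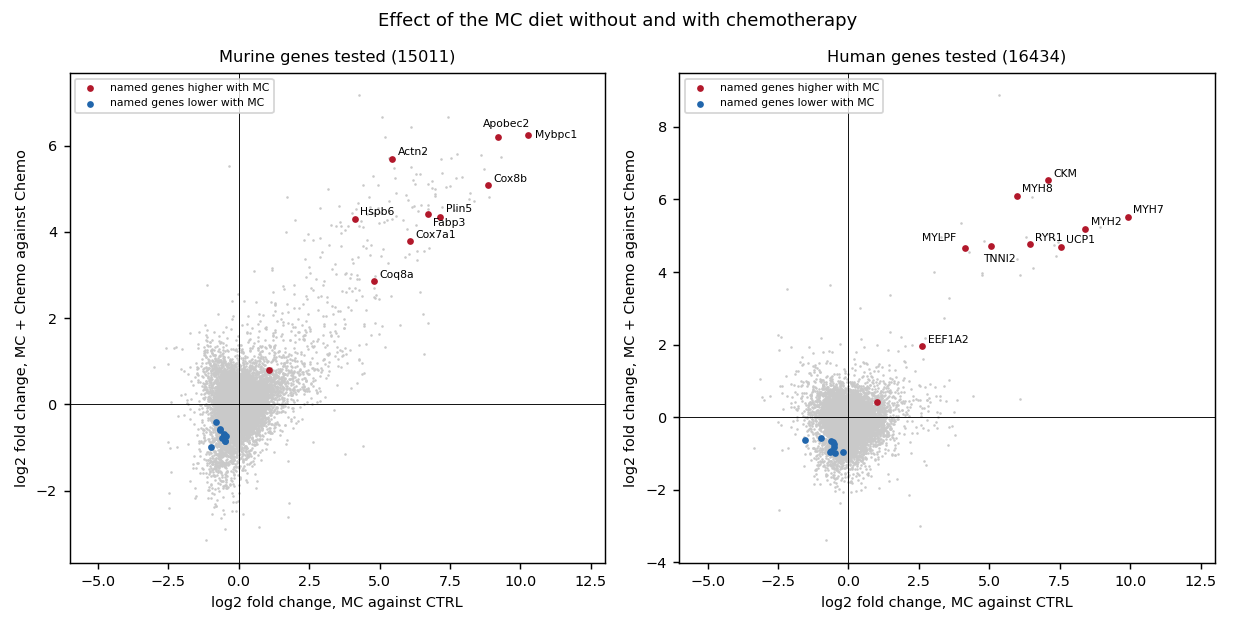
Log2 fold change of MC against CTRL (x axis) and of MC + Chemo against Chemo (y axis) for every murine gene (left, 15011) and human gene (right, 16434) tested, 1 grey point per gene, with the 10 named genes per direction in color. The named genes higher with MC lie far out at upper right except Hspb8 and SFN near the cloud, and the named lower genes lie in the lower left quadrant at a main effect of -1.06 to -0.59.

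Of the murine genes that were lower with MC, the 10 named here had the smallest p among genes of at least 1.5-fold change and a mean normalized count above 30. Their log2 fold changes ran from -0.98 to -0.59, all 10 were called by DESeq2 (adjusted p from 0.00139 to 0.00659) and by voom (0.00761 to 0.0264), and their adjusted p in edgeR was 0.0697. Their exact permutation p within strata ran from 8.59e-05 to 0.00153, where 1.72e-05 is the smallest the 58212 regroupings allow. All 10 stayed lower in each of the 13 alternatives and without each single library. Their adjusted p without the 8 libraries was 0.32 or more. The 10 were chosen by p on these same libraries, so neither their permutation p nor their kept direction is independent support.

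Rbl1 encodes the pocket protein p107, which restrains E2F-driven entry into the cell cycle. Its normalized count was 104, 84.0, 89.7 and 80.4 in CTRL, and 49.2, 48.1, 64.3, 56.8 and 62.1 in MC. It was 72.0, 76.8, 82.7, 63.4 and 62.7 in Chemo, and 37.9 (lowest), 46.3 (median) and 68.8 (highest) in MC + Chemo. MC lay wholly below CTRL, while MC + Chemo overlapped Chemo. The main effect was -0.61 ± 0.12 on the log2 scale (SE, 11 against 9 libraries), -0.66 without and -0.56 with chemotherapy, and -0.36 without the 8 libraries.

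Tet2 encodes a dioxygenase that oxidizes 5-methylcytosine in DNA. Its normalized count was 207, 205, 220 and 187 in CTRL and 190, 97.9, 154, 192 and 111 in MC. It was 203, 188, 236, 219 and 202 in Chemo, and 86.3, 132 and 149 at the lowest, median and highest in MC + Chemo. With chemotherapy every MC library lay below every other library, and without it 2 MC libraries reached the CTRL range. The log2 main effect was -0.60 ± 0.13 and -0.62 without the 8 libraries.

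Clk1 encodes a kinase that phosphorylates SR proteins of the splicing machinery. The normalized count was 399, 503, 259 and 562 in CTRL and 362, 270, 290, 350 and 274 in MC. It was 462, 466, 463, 542 and 331 in Chemo and 187, 235 and 332 in MC + Chemo (lowest, median, highest). In each stratum the overlap came from 1 library without MC, CTRL 44 at 259 and Chemo 67 at 331. On the log2 scale the main effect was -0.68 ± 0.15, and -0.79 without the 8 libraries.

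Ifnar1, a subunit of the type I interferon receptor, had a normalized count of 104, 96.6, 115 and 114 in CTRL and of 65.1, 69.8, 64.3, 102 and 69.9 in MC. In Chemo it was 96.0, 95.4, 127, 107 and 107, and in MC + Chemo 38.7, 70.5 and 86.3 (lowest, median, highest). The groups overlapped at a single library, MC 48. The log2 effect over both strata was -0.62 ± 0.14, and -0.74 without the 8 libraries.

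The other 6 of the 10 were Snx29 of the sorting nexin family (log2 main effect -0.98 ± 0.23), Dock10, of the DOCK family of exchange factors (-0.70 ± 0.16), Magi2, a scaffold of cell junctions (-0.69 ± 0.16), Plekhm3 (-0.63 ± 0.14), Hps3 of the biogenesis of lysosome-related organelles (-0.62 ± 0.15) and Gcfc2 (-0.59 ± 0.14). Snx29 was -1.53 without the 8 libraries and the other 5 were between -0.73 and -0.55. In the Dixon test for a library far from its group, Tet2 in MC + Chemo 52 and Ifnar1 in MC 48 stood apart.

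Further murine genes of the 84 were named after their values were seen. Atr, the kinase of the replication stress checkpoint, was 142, 204, 213 and 184 in CTRL and 154, 103, 123, 172 and 124 in MC. It was 185, 183, 165, 166 and 148 in Chemo and 96.9, 114 and 134 in MC + Chemo, without overlap in the stratum with chemotherapy. Its main effect was -0.52 ± 0.11 (DESeq2 adjusted p = 0.00131, voom 0.0081). Blm, the RecQ helicase of homologous recombination, had a log2 main effect of -0.63 ± 0.17, Spopl, an adaptor of cullin 3 ubiquitin ligases, -0.49 ± 0.10, Itch, a HECT ubiquitin ligase, -0.48 ± 0.11, and Zeb2, a zinc finger repressor expressed in macrophages and mesenchymal cells, -0.41 ± 0.10.

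**Figure D3:**
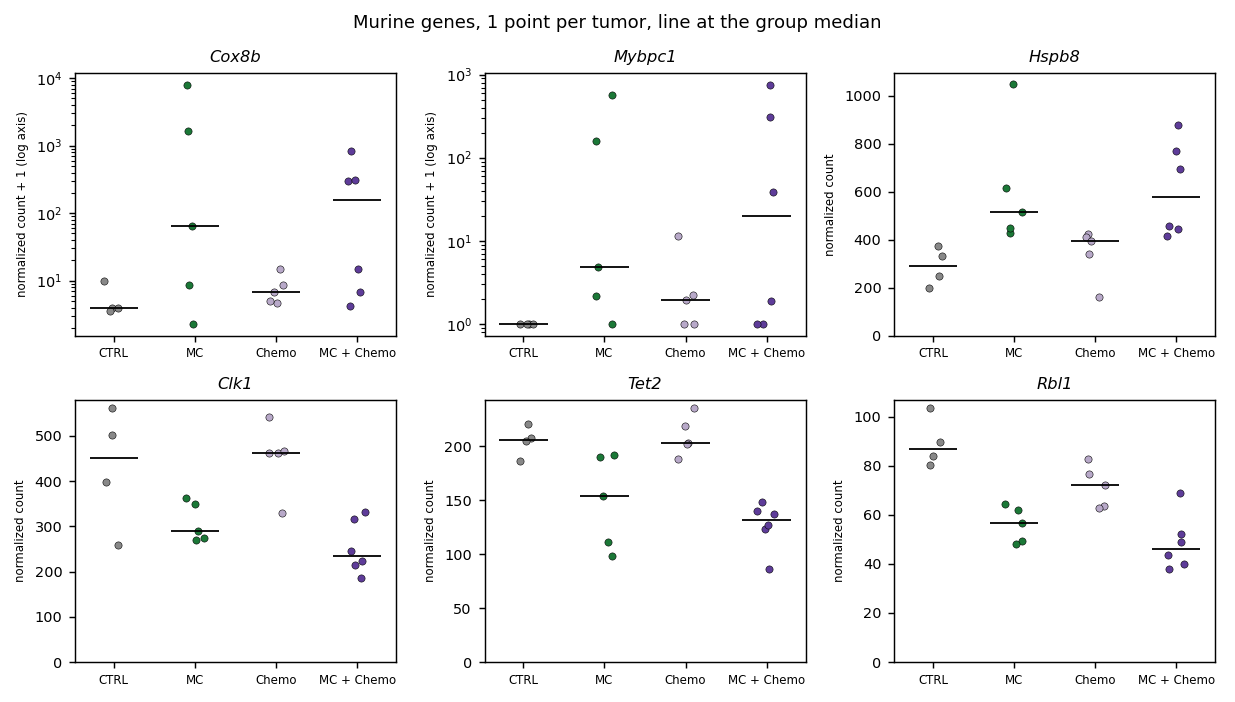
Normalized counts of 6 murine genes in the 4 groups, 1 point per tumor and a line at the group median; Cox8b and Mybpc1 are drawn as count plus 1 on a log axis and the other 4 on a linear axis from 0. Cox8b and Mybpc1 are near 0 in most libraries and reach 7868 and 746 in single MC libraries, whereas Hspb8 is shifted up and Clk1, Tet2 and Rbl1 are shifted down in most MC libraries.

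Murine genes that were higher with MC in both strata included most of the muscle and brown fat markers tested. Of the 186, 24 were skeletal muscle markers of 28 tested, 5 were brown adipocyte markers of 7 and 3 were white adipocyte markers of 17. The 10 named by the rule had log2 main effects from 0.93 to 7.01. DESeq2 called all 10 (adjusted p from 5.64e-06 to 0.00448), voom called 1 (Hspb8, adjusted p = 0.0307), and their exact permutation p ran from 0.000155 to 0.0365.

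Cox8b, a cytochrome c oxidase subunit of muscle and brown fat, was 2.88, 2.90, 8.97 and 2.51 in CTRL and 1659, 7868, 7.75, 63.7 and 1.29 in MC. It was 3.60, 5.81, 14.1, 4.07 and 7.60 in Chemo and 3.24, 156 and 828 in MC + Chemo (lowest, median, highest). The high values sat in a few MC libraries while others of the same groups were at the control level. Over both strata the log2 difference was 6.77 ± 1.45, and too few counts remained to test Cox8b without the 8 libraries.

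High values in a few MC libraries were also found for Cox7a1, a sister subunit (log2 main effect 4.84 ± 1.08), Fabp3, the heart-type fatty acid carrier (5.50 ± 1.17), Plin5, a lipid droplet coat protein of oxidative tissues (6.03 ± 1.31), Actn2, the Z-disc alpha-actinin (5.57 ± 1.20), Hspb6, a small heat shock protein of muscle (4.22 ± 0.92), and Coq8a of coenzyme Q synthesis (3.74 ± 0.84). The high libraries were not the same for all of them. In MC 6 Cox8b was 1659, while Actn2 was 4.76 and Hspb6 57.1. Actn2 and Hspb6 were highest in MC + Chemo 43, at 212 and 1918. Mybpc1, a myosin-binding protein of slow fibers, and Apobec2 of muscle were at 0 in all 4 CTRL libraries and reached 746 and 399 in MC + Chemo (log2 main effects 7.01 ± 1.55 and 6.77 ± 1.49). Without the 8 libraries Fabp3 was -0.15, Hspb6 -0.08, Coq8a -0.06 and Cox7a1 0.11 on the log2 scale. The highest counts of these genes lay in libraries among the 8, which were left out for their muscle or brown fat signal. The loss was therefore largely set by that choice.

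Hspb8 was the exception among the 10. It encodes a small heat shock protein that works with BAG3 in chaperone-assisted autophagy. Its normalized count was 332, 374, 197 and 250 in CTRL and 614, 1050, 515, 429 and 449 in MC. In Chemo it was 425, 411, 163, 341 and 397 and in MC + Chemo 415, 578 and 878. All 5 MC libraries lay above all CTRL libraries, and MC + Chemo overlapped Chemo at its lowest library alone. Its main effect on the log2 scale was 0.93 ± 0.21 (exact permutation p = 0.000155), 1.09 without and 0.81 with chemotherapy, and it was 0.55 without the 8 libraries and 0.51 with the 2 scores as covariates.

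The list of NRF2 targets had 21 of 21 murine members above 0 in the main effect, 7 of them at an unadjusted p below 0.05 and 2 called by DESeq2. In both strata 15 of the 21 were above 0. Of all murine genes tested, 52.7% were above 0 in the main effect and 8.92% were higher at that p. The median log2 fold change of the list was 0.32, beside 0.02 for all murine genes tested. It was 0.17 without MC 41 and 0.06 (14 of 20 higher) without the 8 libraries. Me1, the NADP-dependent malic enzyme, was the only member shifted in both strata. It stood at 67.2, 69.5, 33.3 and 75.4 in CTRL and 243, 679, 62.0, 73.2 and 67.3 in MC. In Chemo it was 61.2, 67.4, 51.4, 69.9 and 67.5 and in MC + Chemo 56.0, 126 and 316. Its log2 main effect of 1.46 ± 0.41 came to 0.00 without the 8 libraries, and its high libraries were among those of high muscle or brown fat score. In the human genome 13 of 20 NRF2 targets were above 0, none at an unadjusted p below 0.05, with a median of 0.09 beside -0.01 for all human genes tested.

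The murine oxidative phosphorylation list had 43 of 43 members higher with MC, 41 at an unadjusted p below 0.05 and 14 called by DESeq2. Of all murine genes tested, 8.92% were higher at that p and DESeq2 called 2.58% higher. The median log2 fold change of the list was 0.92, with 1.35 without and 0.57 with chemotherapy. It was 0.48 without MC 41, and without the 8 libraries 21 of 43 were higher with a median of -0.01. Ndufs7, a subunit of complex I, was the member of smallest p, with a log2 main effect of 1.10 ± 0.32. The human list had 37 of 43 members higher, 9 at an unadjusted p below 0.05, and a median of 0.15, which was 0.04 without the 8 libraries. Of all human genes tested, 3.73% were higher at that p.

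The 12 murine heat shock genes were all higher in the main effect, with a median log2 fold change of 0.19 and 2 at an unadjusted p below 0.05. Of all murine genes tested, 8.92% were higher at that p. In both strata 7 of the 12 were higher, and the medians were 0.07 without and 0.32 with chemotherapy. All 12 were again higher without the 8 libraries, with a median of 0.20, although none passed an unadjusted p of 0.05 there. Fkbp4, a co-chaperone of HSP90 named after its values were seen, was shifted up in both strata. Its log2 main effect was 0.39 ± 0.12, and 0.21 without the 8 libraries. The 12 human heat shock genes were also all higher, with a median of 0.13, none at an unadjusted p below 0.05, and by stratum the medians were -0.05 without and 0.28 with chemotherapy.

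Natural killer cells are among the lymphocytes that Rag1 null mice keep. All 9 of their markers tested were below 0 for the MC main effect, none called by edgeR, 3 at an unadjusted p below 0.05 and 1 called by DESeq2, with a median log2 fold change of -0.72 (-0.66 without and -0.73 with chemotherapy). Of all murine genes tested, 6.55% were lower at an unadjusted p below 0.05 and DESeq2 called 1.69% lower. The 9 were all below 0 without the 8 libraries too, with a median of -0.52 and 2 at an unadjusted p below 0.05, and in the voom fit 1 of 9 was above 0 and the median was -0.41. Klrd1, the CD94 chain of NKG2 receptors, was 73.9, 59.9, 85.9 and 111 in CTRL and 41.3, 43.5, 72.1, 62.8 and 29.8 in MC. It was 125, 55.8, 143, 116 and 74.1 in Chemo and 23.2, 59.8 and 77.7 in MC + Chemo, so both strata overlapped. The log2 main effect was -0.82 ± 0.22 (edgeR adjusted p = 0.0797, DESeq2 0.0143, voom 0.19).

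Of the other murine lists, proliferation had 30 of 32 members lower with a median of -0.23, which was -0.03 without the 8 libraries. By stratum the medians were -0.40 without and -0.09 with chemotherapy. At an unadjusted p below 0.05, 2 of the 32 were lower, near the share of 6.55% over all murine genes tested. Mki67, the marker of cycling cells, had a log2 main effect of -0.59 ± 0.21 (DESeq2 adjusted p = 0.079). Interferon-stimulated genes were lower in 32 of 35, with medians of -0.41 without and 0.09 with chemotherapy, and voom turned the overall median from -0.12 to 0.12. Herc6, an interferon-induced ubiquitin ligase, was the 1 member lower in both strata (-0.66 ± 0.19, DESeq2 adjusted p = 0.0252, voom 0.0411). Endothelial genes had opposite medians, 0.57 without and -0.27 with chemotherapy, and the overall median of 0.10 became -0.09 without CTRL 17, whose endothelial score of 2.80 was the lowest of all libraries. White adipocyte genes were higher in 17 of 17 (median 2.40) and lower in 17 of 17 without the 8 libraries (median -0.88). Macrophage and fibroblast medians were -0.04 and -0.03.

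**Figure D4:**
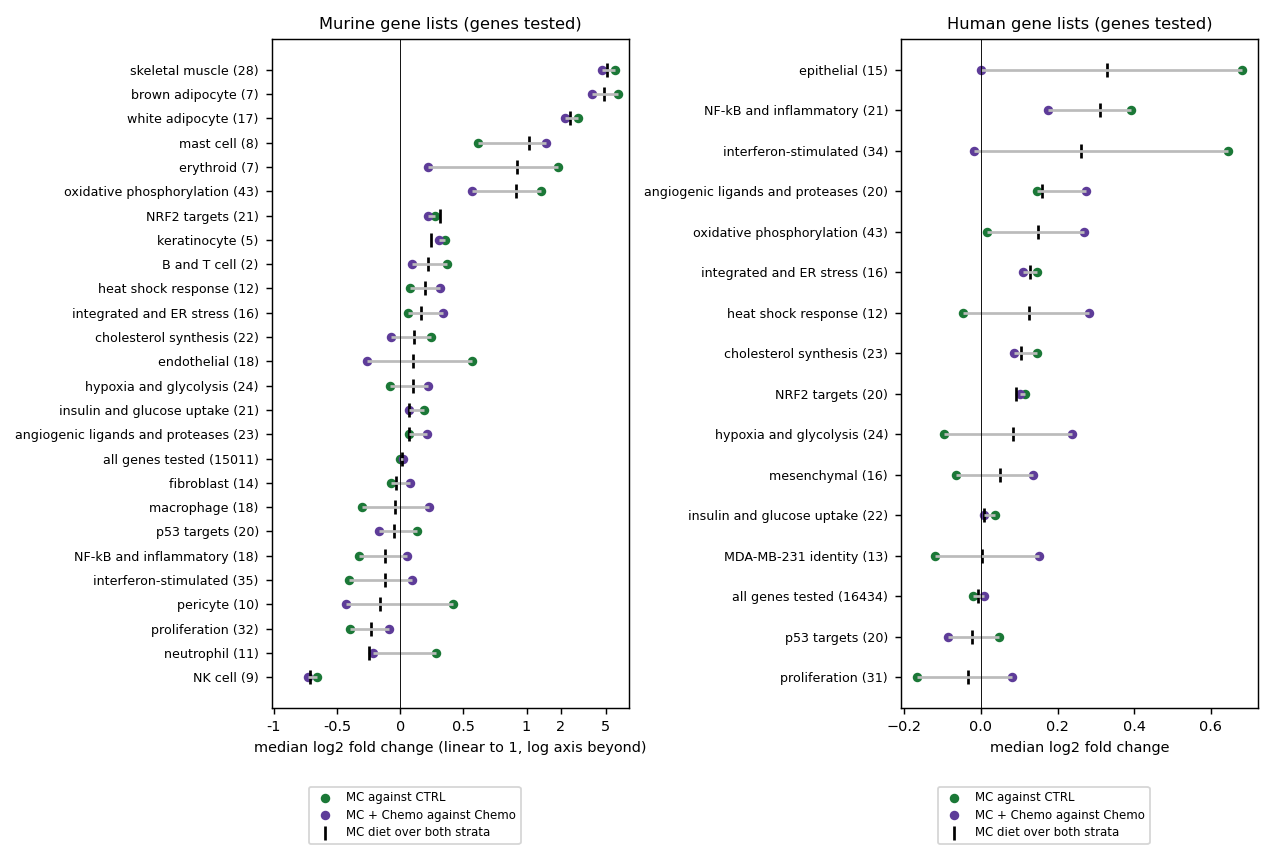
Median log2 fold change of each gene list for MC against CTRL (green), MC + Chemo against Chemo (purple) and the MC diet over both strata (black mark), murine lists left and human lists right, with the number of genes tested in brackets and a line joining the strata. The murine NK cell medians lie together at -0.66 and -0.73, whereas human interferon-stimulated genes are at 0.64 without and -0.02 with chemotherapy.

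Human genes that were lower with MC had smaller and more uniform differences than those that were higher. The 10 named by the same rule ran from -1.06 to -0.62 on the log2 scale, 5 were called by DESeq2 and 7 by voom, and their exact permutation p ran from 0.000172 to 0.00407. Of the 10, 4 also passed an unadjusted p of 0.05 in each stratum: ANKRD36B, LPCAT4, MEMO1 and DZANK1. All 10 kept their direction in each of the 13 alternatives and without each single library. They too were chosen by p on these libraries, so this and their permutation p are not independent support.

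LPCAT4, a lysophospholipid acyltransferase, was 91.1, 53.1, 57.0 and 65.2 in CTRL and 58.2, 34.1, 47.9, 35.1 and 45.0 in MC. It was 37.6, 80.6, 64.4, 48.1 and 45.7 in Chemo and 18.2, 32.1 and 35.7 in MC + Chemo. With chemotherapy the 2 groups did not overlap, and without it MC 6 reached the CTRL range. On the log2 scale the main effect was -0.78 ± 0.18, and -0.49 without the 8 libraries.

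MEMO1, a mediator of ERBB2-driven cell motility, was 96.6, 95.3, 121 and 94.0 in CTRL and 85.3, 51.8, 68.0, 77.3 and 71.0 in MC. It was 101, 67.2, 148, 90.7 and 58.6 in Chemo and 43.1, 57.9 and 72.3 in MC + Chemo. The MC libraries lay below all CTRL libraries, and 2 Chemo libraries fell within the MC + Chemo range. The log2 effect over both strata was -0.62 ± 0.15, and the same without the 8 libraries (-0.62).

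CRADD, an adaptor that links PIDD1 to caspase 2, was 170, 44.4, 155 and 44.2 in CTRL and 23.0, 41.2, 47.9, 26.8 and 39.6 in MC. It was 38.7, 31.3, 44.1, 45.9 and 49.3 in Chemo and 16.3, 28.8 and 35.2 in MC + Chemo. CTRL held a pair of high and a pair of low libraries, and the low pair lay at the level of MC. Over both strata the log2 difference was -1.06 ± 0.26, with -1.53 without and -0.64 with chemotherapy. POLQ, the polymerase of theta-mediated end joining, had a log2 main effect of -0.69 ± 0.19. In Chemo it ran from 75.8 to 88.6 and in MC + Chemo from 19.5 to 56.7, without overlap, while MC at 28.2 to 78.5 overlapped CTRL at 63.8 to 80.0. PSMA6, a proteasome subunit, was at -0.20 without and -0.95 with chemotherapy (unadjusted p of the interaction = 0.0197).

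ANKRD36B (-0.81 ± 0.19) and AGAP6 (-0.77 ± 0.20) belong to families with near-identical copies that can share short reads, so their values are uncertain. DZANK1 (-0.64 ± 0.17), HSF4, a heat shock factor (-0.63 ± 0.18), and PYROXD2 (-0.76 ± 0.21) completed the 10.

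Further human genes of the 101, below the 1.5-fold limit, were named after their values were seen. KNTC1, a part of the kinetochore checkpoint complex that recruits dynein, was 259, 244, 294 and 272 in CTRL and 225, 147, 183, 185 and 195 in MC. It was 260, 215, 240, 199 and 230 in Chemo and 109, 158 and 189 in MC + Chemo. Within each stratum every MC library lay below every other library. Its main effect on the log2 scale was -0.55 ± 0.10 (edgeR adjusted p = 0.158, DESeq2 0.00254, voom 0.00761), and -0.42 without the 8 libraries. GEN1, a Holliday junction resolvase, had a log2 main effect of -0.50 ± 0.13, ATG7, the E1-like enzyme of autophagy, -0.45 ± 0.10, and STAG1 of cohesin -0.39 ± 0.10.

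The human and murine comparisons share all 20 libraries and are therefore not independent. For 4 names, examples chosen after their values were seen, both values are given side by side. ATR was at -0.35 ± 0.10 in the human genome and Atr at -0.52 ± 0.11 in the murine one. DOCK10 and Dock10 were at -0.69 ± 0.20 and -0.70 ± 0.16, RUFY3 and Rufy3 at -0.49 ± 0.11 and -0.37 ± 0.11, and STX16 and Stx16 at -0.37 ± 0.09 and -0.40 ± 0.11. How a read that matched both genomes was assigned is not given in the sources used here.

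**Figure D5:**
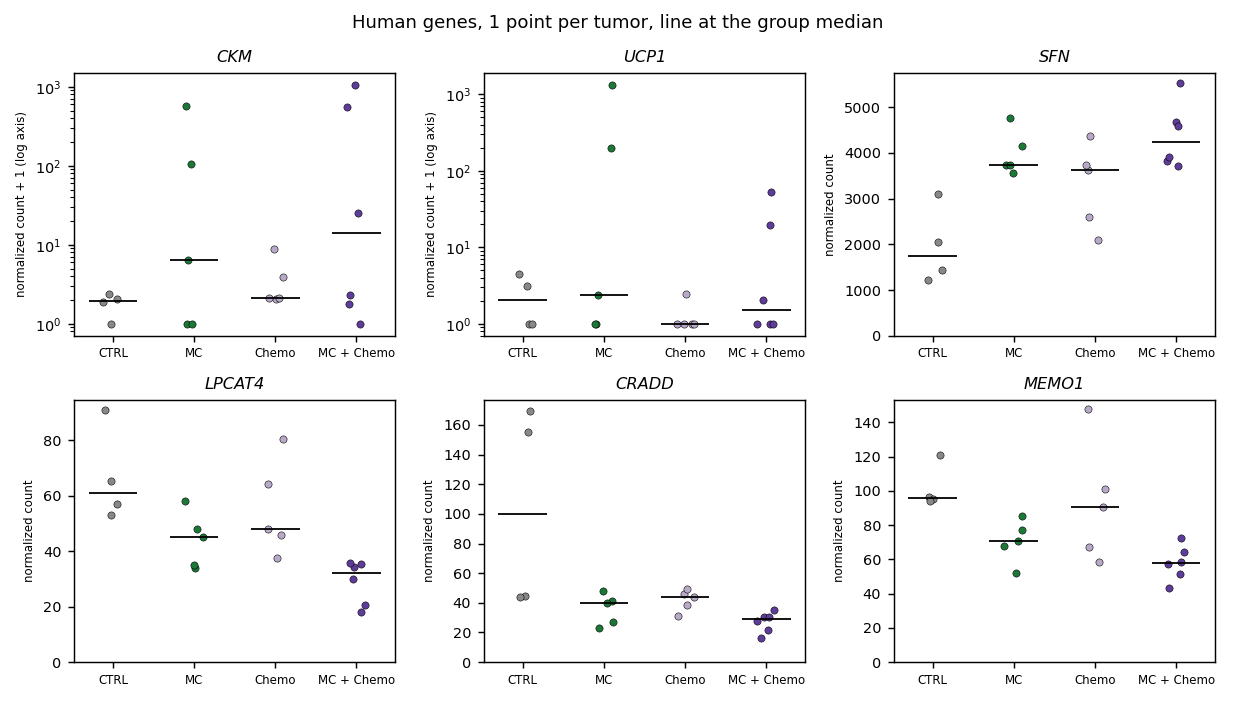
Normalized counts of 6 human genes in the 4 groups, 1 point per tumor and a line at the group median; CKM and UCP1 are drawn as count plus 1 on a log axis and the other 4 on a linear axis from 0. CKM and UCP1 are near 0 in most tumors and reach 1047 and 1320 in single MC libraries, SFN is higher in all MC libraries than in CTRL, and LPCAT4, CRADD and MEMO1 are lower in most of them.

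Of the 10 human genes named as higher with MC, 8 were genes of muscle or brown fat and EEF1A2 is an elongation factor form of muscle and neurons. DESeq2 called 7 of the 10 and voom 1, and their exact permutation p ran from 0.000206 to 0.138. CKM, muscle creatine kinase, was 0, 1.08, 0.863 and 1.40 in CTRL and 0, 562, 5.46, 104 and 0 in MC. It was 1.08, 7.84, 1.13, 1.12 and 2.86 in Chemo and 0, 12.9 and 1047 in MC + Chemo. MC 41, MC 48 and MC + Chemo 5, 43 and 47 held the highest counts of both human CKM and murine Ckm. Summed over the 20 libraries, human CKM counts came to 18.6% of the murine Ckm counts, and in the 9 libraries with at least 20 murine counts the median was 18.3% (8.54 to 45%). By the same sum human RYR1 counts came to 62.4% of murine ones (53.3 to 68% in 6 libraries with at least 20 murine counts) and UCP1 to 3.75% (0 to 12% in 14 such libraries).

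The log2 main effects were 6.70 ± 1.5 for CKM, 7.24 ± 1.69 for the slow myosin MYH7, 6.04 ± 1.47 for MYH8, 5.87 ± 1.47 for MYH2, 5.30 ± 1.28 for the calcium release channel RYR1, 4.83 ± 1.14 for the troponin TNNI2, 4.44 ± 1.08 for the myosin light chain MYLPF, 7.03 ± 1.72 for UCP1, the uncoupling protein of brown fat, and 2.24 ± 0.54 for EEF1A2. With the 2 murine tissue scores as covariates MYLPF was at -0.02 and UCP1 at -0.48, CKM at 0.57 and MYH7 at 1.15. The scores are built from murine markers of the same tissues. Human counts moved with their murine namesakes across libraries (Pearson r of log2(CPM + 1) 0.981 for CKM, 0.98 for MYLPF and 0.953 for UCP1). This fall was therefore largely set by the choice of covariates.

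SFN, which encodes 14-3-3 sigma, an epithelial p53 target that holds cells before mitosis, was the 1 other gene. It was 1447, 3113, 1227 and 2043 in CTRL and 3743, 3569, 4162, 3742 and 4766 in MC. It was 3632, 3746, 2104, 2597 and 4377 in Chemo and 3720, 4248 and 5530 in MC + Chemo. MC lay wholly above CTRL, and MC + Chemo overlapped the upper Chemo libraries. The log2 main effect was 0.68 ± 0.17 (edgeR adjusted p = 0.158, DESeq2 0.0285, voom 0.0384, exact permutation p = 0.000206), 1.02 without and 0.41 with chemotherapy, and 0.81 without the 8 libraries.

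A few human genes outside the muscle group were higher in both strata. TGFBI, an extracellular matrix protein induced by TGF-beta, was 2539, 2325, 1858 and 2004 in CTRL and 3474, 3529, 2581, 2675 and 3893 in MC. It was 1945, 1415, 1399, 1649 and 1825 in Chemo and 1455, 2504 and 3624 in MC + Chemo. MC lay above all CTRL libraries, while 2 MC + Chemo libraries lay within the Chemo range. The log2 effect over both strata was 0.57 ± 0.14 (DESeq2 adjusted p = 0.0289, voom 0.0359), and 0.68 without the 8 libraries. LTB, the membrane lymphotoxin subunit (1.22 ± 0.33), and TNIP1, an inhibitor of NF-kB signaling (0.28 ± 0.07), were named after their values were seen.

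The human NF-kB and inflammatory list had 21 of 21 members above 0 in the main effect, 2 of them at an unadjusted p below 0.05 and 0 called by DESeq2. In both strata 13 of the 21 were above 0. Of all human genes tested, 48.7% were above 0 in the main effect and 3.73% were higher at that p. The median log2 fold change of the list was 0.31, with 0.39 without and 0.17 with chemotherapy. It was 0.21 without CTRL 17 and 0.40 without the 8 libraries. The score of the list was low in 2 CTRL libraries, CTRL 17 at 3.14 and CTRL 44 at 3.25. CTRL 31 at 4.15 and CTRL 70 at 4.38 lay within the MC range of 3.97 to 4.47. Both low CTRL libraries stay in the fit without the 8 libraries. CXCL8, a neutrophil chemokine, was at 0.49 ± 0.24 (edgeR adjusted p = 0.484).

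Human interferon-stimulated genes were above 0 in 32 of 34, but their median of 0.26 joined 0.64 without chemotherapy to -0.02 with it. Their score ran from 3.86 (CTRL 17) to 6.63 in CTRL with a median of 5.66, from 6.26 to 6.78 in MC, 6.84 to 7.16 in Chemo and 6.82 to 7.05 in MC + Chemo. CTRL 44 was also low, at 4.87. Without CTRL 17 the median was 0.11, and voom put it at 0.01. ISG15, a ubiquitin-like interferon product, was at 0.90 without and 0.30 with chemotherapy, and TAP1, a peptide transporter of antigen presentation, at 0.57 and 0.31. Epithelial genes were above 0 in 15 of 15 (median 0.68 without and -0.00 with chemotherapy), none at an unadjusted p below 0.05. Their score ran from 2.94 (CTRL 17) to 7.27 in CTRL, with CTRL 44 at 4.87, and from 6.84 to 7.25 in MC. Without CTRL 17 the median over both strata was 0.16.

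Among p53 targets 10 of 20 human members were above 0. CDKN1A, the p21 inhibitor of cyclin-dependent kinases, was at 0.44 ± 0.15 (edgeR adjusted p = 0.291, DESeq2 0.18), with 0.72 without and 0.22 with chemotherapy. Its normalized count was 891 in CTRL 17 and 860 in CTRL 44, 1912 and 2276 in CTRL 31 and CTRL 70, and 2011 to 2783 in MC. Human proliferation genes were lower in 21 of 31 with a median of -0.03, and the list of MDA-MB-231 identity, 13 genes tested, had a median of 0.00.

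Identifiers that the tables do not pair with a symbol took a large part of the lower genes. They made up 2147 of the 15011 murine and 3557 of the 16434 human genes tested. Of the 2147, 366 (17%) were lower and 51 (2.38%) higher at an unadjusted p below 0.05. The shares of all murine genes tested were 6.55% and 8.92%. Of the 3557, 462 (13%) were lower and 71 (2%) higher, beside 7.03% and 3.73% of all human genes tested. Identifiers without a symbol were 35 of the 84 murine and 50 of the 101 human genes lower in both strata, and 6 of the 186 and 1 of the 50 that were higher. Their median mean normalized count was 19.6 (murine) and 22.0 (human), beside 91.4 and 150 for all genes tested.

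Genes whose libraries did not overlap were few. They were judged on log2 CPM and named after their values were seen. Over the 11 MC and 9 other libraries, 2 murine genes (0.0133%) were lower without overlap, and 0 were higher. They were Ccdc84 and ENSMUSG00000102556. Ccdc84 had a normalized count of 76.4 to 102 without and 43.1 to 77.2 with MC, so that its groups parted on the CPM scale and just met on the normalized scale, with a log2 main effect of -0.45 ± 0.12. ENSMUSG00000102556 was 16.8 to 34.6 without and 2.43 to 16.4 with MC, a log2 main effect of -1.43 ± 0.24 (edgeR adjusted p = 0.0697, DESeq2 5.92e-05).

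Within each stratum taken alone, 4 murine genes were lower without overlap (0.0266%), those 2 and 2 further identifiers without a symbol, and 1 was higher (0.00666%). The higher one was Mrpl34 of the mitochondrial ribosome. Mrpl34 ran from 178 to 273 in CTRL, 280 to 1827 in MC, 198 to 246 in Chemo and 263 to 382 in MC + Chemo. Its highest values were 1827 in MC 41 and 676 in MC 6, both among the 8 libraries of high score. The log2 main effect was 1.01 ± 0.29 (edgeR adjusted p = 0.104). It was 0.30 without the 8 libraries and 0.24 with the muscle and brown fat scores as covariates. In the human genome 7 genes were lower in this way (0.0426%) and 0 were higher. They were KNTC1, DHX57, a DExH-box helicase (-0.43 ± 0.11), ZMYM1 (-0.37 ± 0.11) and 4 identifiers without a symbol, such as ENSG00000244879 (-0.71 ± 0.13).

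Whether the MC effect differed between strata was tested by the interaction. No gene passed an adjusted p of 0.05 in edgeR in either genome (lowest adjusted p = 0.695 murine and 0.511 human), with 1031 murine (6.87%) and 1600 human genes (9.74%) at an unadjusted p below 0.05. DESeq2 called 0 murine and 2 human genes. One was LXN, the carboxypeptidase inhibitor latexin, at -1.02 without and 1.26 with chemotherapy (DESeq2 adjusted p = 0.0282), and the other was ENSG00000130600, at 2.22 and -0.98, which the tables pair with no symbol.

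Of the 22 murine genes that the study singles out, 19 were above 0, 13 at an unadjusted p below 0.05, with a median of 0.93, and without the 8 libraries 13 of 19 were above 0. Of all murine genes tested, 52.7% were above 0 and 8.92% were higher at that p. The 22 held 9 genes shifted up in both strata, with a median log2 main effect of 5.22. The 22 were chosen on these samples, so their direction is not independent evidence. Among them Cyp2e1, a cytochrome P450, was higher in both strata. It was 1.92, 4.83, 8.97 and 6.28 in CTRL and 20.6, 69.8, 4.77, 7.75 and 6.47 in MC. It was 3.60, 2.33, 1.01, 0 and 0.95 in Chemo and 11.3, 22.2 and 73.1 in MC + Chemo. With chemotherapy all MC libraries lay above all others, and without it they overlapped. Over both strata the log2 difference was 3.01 ± 0.62 (edgeR adjusted p = 0.0697, DESeq2 0.000159, voom 0.0652), with 1.98 without and 4.28 with chemotherapy, and 1.58 with the muscle and brown fat scores as covariates. Angptl4, a lipase inhibitor of the angiogenic ligand list, was at 0.69 ± 0.22 (DESeq2 adjusted p = 0.0439, voom 0.015), with 0.45 without and 0.89 with chemotherapy, and 0.24 without the 8 libraries.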

How the data were processed

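RNA from 20 tumors of mice on a high-fat diet was sequenced as 3' tag libraries (Lexogen QuantSeq, single forward reads). The authors aligned the reads with the BlueBee pipeline and deposited raw read counts per gene, whole numbers and not normalized, in 1 table of 16667 murine genes and 1 of 18880 human genes. They also deposited normalized values, which are those counts divided by a DESeq2 size factor per library (deposited signal, in the text the normalized count). GRCm38 and DESeq2 1.22.2 are named in the submitters' processing notes, and the human build and the handling of reads that match both genomes are not given in the sources used here. No symbol is paired with 2991 murine and 5259 human identifiers.

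Genes were kept by filterByExpr (minimum count 10, by group). The raw counts were fitted in edgeR 4.0.16 (R 4.3.3) with TMM scaling and the quasi-likelihood F test, with chemotherapy and MC diet as terms, and stratum effects and the interaction came from a fit of the 4 groups. The SE is the absolute log2 fold change over the root of F. DESeq2 1.42.0 and limma 3.58.1 (voom with sample quality weights) were alternatives. Calls used Benjamini-Hochberg adjusted p below 0.05, and 3 criteria added a mean normalized count above 30 and a fold change above 1.5. Single genes also had a two-sided exact permutation test within strata on log2(CPM + 1), and group overlap was read on the same values. P-values measure the spread between tumors of single mice.

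The genes named were, per genome, the 10 higher and 10 lower of smallest p among genes with a symbol, a mean normalized count above 30, a fold change above 1.5 and the same sign in both strata, with up to 4 members of each gene list by p. A library score above 3 marked high muscle or brown fat signal. The comparison, its members and the lists were chosen with earlier results of these data known. The scripts were tested on simulated counts. A few genes are not reported here.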

Additional observations from a re-analysis of the deposited data

Results flagged for a closer look

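Dixon's test marked a library far from the others of its group in 12 of 164 group values, and chance marks about 1 in 20. In the murine genome Ifnar1 was 102 in MC 48, with 69.9 as the next MC value, and Tet2 was 86.3 in MC + Chemo 52, with 124 next. Cox8b was 8.97 in CTRL 44 (next 2.9), and Hspb8 was 163 in Chemo 33 (next 341). Among human genes POLQ was 19.5 in MC + Chemo 52 (next 42.3), EEF1A2 was 16.8 in Chemo 34 (next 50) and MEMO1 was 121 in CTRL 44 (next 96.6). Human muscle genes stood apart in Chemo 30, the Chemo library of high muscle score, with MYH7 at 3.36, MYH8 at 5.6 (both 0 in the next library) and MYLPF at 59.3 (next 16.1). UCP1 was 1.43 in Chemo 67 and 0 in the other Chemo libraries. The share of human reads was 47.8% in MC 41, with 62.3% as the next MC value. None of these libraries was left out for this reason.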

How the results depend on the processing

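The 4 counts of genes per genome and the share of human reads gave 79 values within 1.5 times the main one, or of the same direction, and 21 that moved. Most of the 79 were counts of 0 that stayed 0. The tally also takes no account of direction within a count. The murine voom count of 293 genes shifted in both strata is among the 79, with 62 higher and 231 lower in place of 186 and 84. DESeq2 gave 641 murine genes at an adjusted p of 0.05 (339 by 3 criteria), 100 human genes (39) and 2 human genes for the interaction, where edgeR gave 0 for each. The limma voom fit gave 380 murine (105) and 475 human genes (109), and 317 human genes shifted in both strata in place of 151. With all 24 libraries in the fit edgeR gave 223 murine genes (114 by 3 criteria). The murine count of 270 and human count of 151 shifted in both strata were 86 and 61 with RNA cleanup as a covariate, 165 and 61 without MC 41 and MC 42, 72 and 35 without the 8 libraries of high score, and 73 and 63 with the scores as covariates, and 93 human genes were counted with 1 fit per stratum. Leaving out the 8 libraries and adding the scores were chosen after seeing the data, and the cause was not tested. Leaving out 1 library at a time gave 0 to 1 murine genes (1 without MC + Chemo 47) and 0 to 1 human genes (1 without Chemo 33) at an adjusted p of 0.05, and 0 to 0 by 3 criteria or for the interaction. It gave 141 (without MC 41) to 365 (without MC + Chemo 25) murine and 77 (without MC 41) to 206 (without MC 6) human genes shifted in both strata. The difference in the share of human reads then ran from -2.43 to 0.0411 points, reversed without MC 41. Of single genes, Fabp3 (-0.15), Hspb6 (-0.0763), Coq8a (-0.0576), Ucp1 (-0.0607) and Ckm (-0.10) reversed without the 8 libraries, and MYLPF (-0.0217), UCP1 (-0.48) and ENSG00000130600 (-0.0768) reversed with the scores as covariates. Muscle genes such as Cox8b and CKM were too rare to fit without the 8 libraries. No paired analysis was possible because each mouse number belongs to 1 library.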

Other observations

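Values of further host lists are given here. edgeR called none of their genes. Of all murine genes tested, 8.92% were higher and 6.55% lower at an unadjusted p below 0.05. Erythroid genes were above 0 in 7 of 7 tested, 4 at an unadjusted p below 0.05 and 1 called by DESeq2, with medians of 1.88 without and 0.22 with chemotherapy, and all 7 were again above 0 without the 8 libraries of high muscle or brown fat score (median 0.63). Mast cell genes were above 0 in 7 of 8 (median 1.05, 3 at an unadjusted p below 0.05), and 1 of 8 was above 0 without the 8 libraries (median -0.49). Pericyte genes had a median of 0.42 without and -0.43 with chemotherapy, and without the 8 libraries 10 of 10 were above 0. Neutrophil genes had 2 of 11 lower at an unadjusted p below 0.05 and a median of -0.24.

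Among human-assigned genes, angiogenic ligands and proteases were above 0 in 15 of 20, 1 at an unadjusted p below 0.05, with medians of 0.15 without and 0.27 with chemotherapy. Genes of the integrated and endoplasmic reticulum stress response were above 0 in 15 of 16 human members (median 0.13) and in 13 of 16 murine members (median 0.17). Hypoxia and glycolysis genes were above 0 in 17 of 24 human and 16 of 24 murine members, with medians of 0.08 and 0.10. Cholesterol synthesis genes had medians of 0.10 (human) and 0.11 (murine), and insulin and glucose uptake genes 0.01 and 0.07. Mesenchymal genes had a human median of 0.05. The murine median was -0.05 for p53 targets, -0.12 for NF-kB and inflammatory genes and 0.25 for 5 keratinocyte genes.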
